A study of Mus musculus with 3 samples.

Results

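Transcripts of 6 genes of the MHC class II pathway were read on 3 one-colour arrays of mouse CD8 T cells. The genes are H2-Aa, H2-Ab1, H2-Eb1, H2-DMa, Cd74 (the invariant chain) and Ciita. They were taken by name: every probe set was used whose platform annotation gave 1 of these symbols and no other, with older symbols updated through the Entrez identifier. This gave 14 probe sets for the 6 genes, among 34958 probe sets with a single symbol and 18194 named genes in all. H2-Aa had 4 probe sets, H2-Ab1 and Ciita had 3 each, H2-DMa had 2, and H2-Eb1 and Cd74 had 1 each.

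All samples were CD8 T cells, with MLN (in the study, the mesenteric lymph node) given as the tissue. Each of the 3 groups held 1 array, hybridised with biotin-labelled cRNA from 6 µg of total RNA. The CL4-TCR group carried a transgenic T cell receptor specific for influenza hemagglutinin (HA). That receptor is named in every group. The names of the HA groups pair it with HA driven by the villin promoter, which is active in gut epithelial cells. The pairing is written with a slash in VILLIN-HA/CL4-TCR. In Villin-HA + CL4-TCR it is written with a plus sign. The labels do not say whether the same mice carried both transgenes in each of these groups. The submitters list plain, activated and regulatory CD8 populations, without saying in the sample labels which HA group is which; what is known of the study from elsewhere is that suppressive cells came from mice with both transgenes. Strain, age and sex of the mice, the number of animals per array and the purity of the sorted cells are, in the sources used here, not given.

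MHC class II molecules present peptides from the endosome to CD4 T cells and are known from B cells, dendritic cells and macrophages. An alpha and a beta chain form the molecule; the invariant chain Cd74 fills its groove and carries it to the endosome, and H2-DM then exchanges the leftover invariant chain fragment for a peptide. CIITA, the product of Ciita, is the master transactivator of these genes, and mouse T cells are known to make little or no class II of their own.

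H2-Aa encodes the alpha and H2-Ab1 the beta chain of I-A, H2-Eb1 encodes the beta chain of I-E, and H2-DMa encodes the alpha chain of H2-DM. In the GRCm38.p6 gene table, H2-Aa lies at chr17:34282744-34287823, H2-Ab1 at chr17:34263227-34269418, H2-Eb1 at chr17:34305867-34316674 and H2-DMa at chr17:34119693-34139101. Cd74 and Ciita lie on other chromosomes.

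Class II genes share a promoter module that is bound by RFX, CREB and NF-Y proteins at its X1, X2 and Y boxes and that recruits CIITA. The 120 bases before the annotated start of H2-Aa (chr17:34287824-34287943, minus strand) and of H2-Eb1 (chr17:34305747-34305866, plus strand) are shown because these genes had higher signals on both HA arrays. The sequences are RefSeq's (GRCm38.p6), and capitals mark matches to the motifs searched on both strands: a Y box core ATTGG, a longer Y box CTGATTGG that contains it, an X2 box TGANNTCA and a degenerate X1 box.
H2-Aa: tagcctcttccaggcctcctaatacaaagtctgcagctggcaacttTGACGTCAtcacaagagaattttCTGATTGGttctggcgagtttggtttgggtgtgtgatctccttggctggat
H2-Eb1: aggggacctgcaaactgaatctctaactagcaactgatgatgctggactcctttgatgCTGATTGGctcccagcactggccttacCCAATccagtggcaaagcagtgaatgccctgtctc

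In H2-Aa the longer Y box spans bases 51 to 44 before the start, and the X2 box spans bases 74 to 67. In H2-Eb1 the longer Y box spans bases 62 to 55, and a further core on the other strand spans bases 35 to 31. Of 32851 promoter windows of 300 bases, 4.10% held the longer Y box, 37.4% the core, 14.1% the X2 box and 1.42% the X1 box. The 2 windows of H2-DMa held 1 core between them, at bases 198 to 194 before the start, and neither the longer Y box nor the X boxes. Their starts follow chr17:34122831 and chr17:34125517, inside the gene span given above. Other possible starts of H2-DMa were not searched, so these windows do not show whether its promoter holds the module. Of the other class II genes H2-Eb2, H2-DMb1, H2-DMb2, H2-Oa and H2-Ob, each with 1 window, all 5 held the core and 2 the longer Y box. Among these 5, H2-DMb1 alone held the X1 box, at bases 98 to 85 before the start, and none held the X2 box. No member window held the X1 box as searched. A match describes the letters and not a bound site. H2-Ab1, Cd74 and Ciita were not analysed here for promoter letters.

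The values are MAS5 signals, which summarise the probes of a probe set on a linear scale, with every array scaled to a trimmed mean of 150. Values below the median of all values, a signal of 31.7, were raised to this floor, and a gene or probe set counts as measured between 2 arrays if at least 1 of its values there exceeded the floor. It is called higher or lower at a fold of 2 or more, a log2 difference of 1. A fold against a value raised to the floor is a minimum, written with "at least". Where signals are given without a group name, they stand in the order CL4-TCR, then VILLIN-HA/CL4-TCR, then Villin-HA + CL4-TCR. With 1 array a group there is no spread between samples and no test, so each difference is one between arrays. The only error available is the disagreement of probe sets of 1 gene, whose SD on the log2 scale, pooled over all genes with several measured probe sets, was 0.43 between VILLIN-HA/CL4-TCR and CL4-TCR, 0.65 between Villin-HA + CL4-TCR and CL4-TCR, and 0.61 between the HA arrays.

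The median signal ran from 29.4 to 35.3 on the 3 arrays. The ratio of the 3′ to the 5′ Gapdh control probe sets, a sign of RNA quality, was 18.4 for CL4-TCR, 46.2 for VILLIN-HA/CL4-TCR and 3.35 for Villin-HA + CL4-TCR. Xist, an RNA of female cells, had signals of 5442.5, 2.5 and 1339 in that order, and the Y-linked gene Eif2s3y had 13.4, 1496 and 746.9, so sex cannot be told apart from the group. Only on Villin-HA + CL4-TCR were both above the floor. Of 10 names of CD8 T cell markers, 8 were found, and all 8 lay above the floor on each array, with Cd2 at 2308.3, 714.1 and 1257.2 the only one past 2-fold from CL4-TCR by its brightest probe set (3.23-fold lower on VILLIN-HA/CL4-TCR). The part of RNA quality and sex in the results below was not tested.

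The chains of the surface molecules had their lowest signals in CL4-TCR cells and their highest in Villin-HA + CL4-TCR cells. By its brightest probe set on average, H2-Aa was 2.40-fold higher in VILLIN-HA/CL4-TCR and 3.17-fold higher in Villin-HA + CL4-TCR cells than in CL4-TCR cells. H2-Eb1 was 2.73-fold and 4.16-fold higher in the same comparisons. H2-Ab1 was 2.65-fold higher in Villin-HA + CL4-TCR cells and had a ratio of 1.57 in VILLIN-HA/CL4-TCR cells, short of a call. Cd74 went another way, with its highest signal in VILLIN-HA/CL4-TCR cells, and Ciita lay below the floor on all 3 arrays. In such bulk samples, a different share of cells of a type and a different amount of RNA per cell cannot be told apart.

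**Figure D1:**
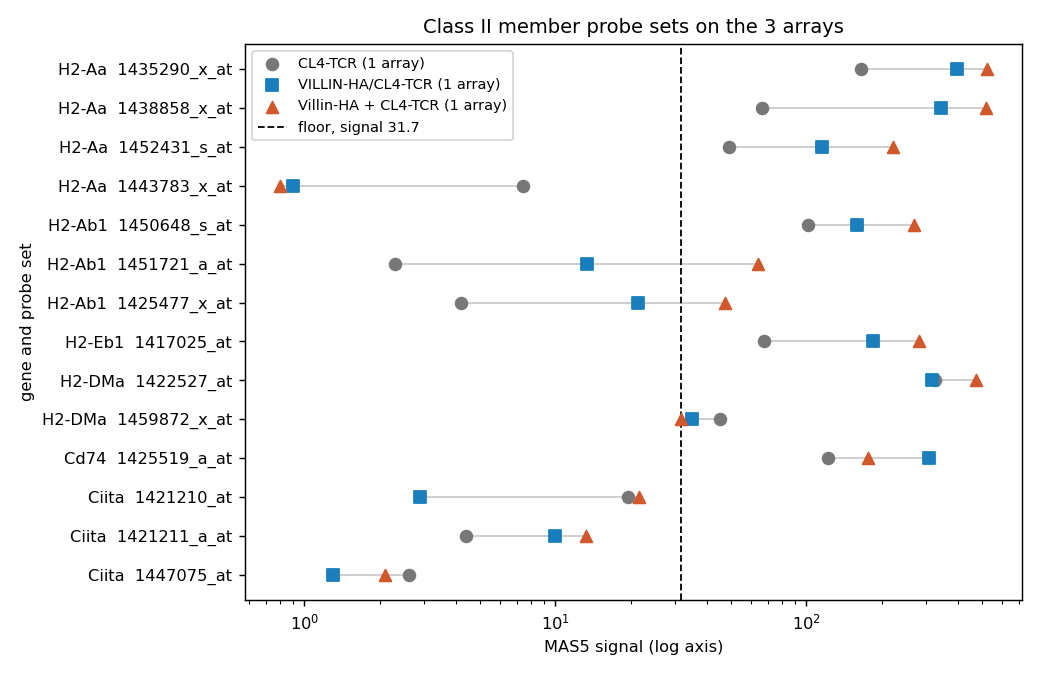
MAS5 signal on a log axis for each of the 14 probe sets of the 6 genes, with 1 symbol for each array and a dashed line at the floor of 31.7. The probe sets of H2-Aa above the floor, and those of H2-Ab1 and H2-Eb1, run from CL4-TCR through VILLIN-HA/CL4-TCR to Villin-HA + CL4-TCR, Cd74 is highest on VILLIN-HA/CL4-TCR, and the 3 Ciita probe sets stay below the line.

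H2-Aa, the I-A alpha chain, had signals of 165.7 in CL4-TCR cells, 397.5 in VILLIN-HA/CL4-TCR cells and 524.6 in Villin-HA + CL4-TCR cells by probe set 1435290_x_at. A second probe set, 1438858_x_at, gave 66.5, 343.8 and 518.9, and a further one, 1452431_s_at, gave 49.2, 115.2 and 220.7. These 3 probe sets put the arrays in the same order, but they disagreed on the size: the folds against CL4-TCR ran from 2.34 to 5.17 for VILLIN-HA/CL4-TCR and from 3.17 to 7.80 for Villin-HA + CL4-TCR. Their log2 differences had an SD of 0.65 in the first comparison and 0.66 in the second (3 probe sets each). The fourth probe set, 1443783_x_at, lay below the floor on every array, with signals of 7.4, 0.9 and 0.8, and gave no difference.

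H2-Ab1, the partner of H2-Aa in I-A, had signals of 101.6, 159.3 and 269.0 in the stated order of arrays by probe set 1450648_s_at. The log2 differences from CL4-TCR were 0.65 and 1.40. The probe sets 1451721_a_at and 1425477_x_at lay above the floor in Villin-HA + CL4-TCR cells alone, with signals of 64.1 and 47.4 there, against 2.3 and 4.2 in CL4-TCR cells and 13.3 and 21.3 in VILLIN-HA/CL4-TCR cells. Against CL4-TCR this is at least 2.02-fold for the former and at least 1.495-fold for the latter. All 3 probe sets thus ordered the arrays alike, and the size of the difference rests on 1 of them.

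H2-Eb1, the I-E beta chain, had signals of 67.5, 184.3 and 280.9 in the same order of arrays. Its log2 differences from CL4-TCR, 1.45 and 2.06, were each larger than the pooled disagreement of probe sets, which measures no spread between samples. It is also the only called member whose probe set carries no suffix for possible matches to several transcripts. Of the measured genes, 96.0% had a smaller log2 difference than H2-Eb1 in the first comparison and 96.9% in the second.

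H2-DMa, the alpha chain of the peptide-loading factor, was not called. Its signals were 324.7, 317.9 and 475.7 by probe set 1422527_at, with log2 differences from CL4-TCR of -0.03 and 0.55. The other probe set, 1459872_x_at, had 45.1, 35.1 and 31.7, which is the reverse order of arrays at signals near the floor. On the CL4-TCR array the main H2-DMa probe set stood above 85.5% of all probe sets.

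Cd74, which encodes the invariant chain, had signals of 121.9 in CL4-TCR, 307.3 in VILLIN-HA/CL4-TCR and 176.6 in Villin-HA + CL4-TCR cells. It was 2.52-fold higher in VILLIN-HA/CL4-TCR cells than in CL4-TCR cells, and the ratio for Villin-HA + CL4-TCR was 1.45, short of a call. In VILLIN-HA/CL4-TCR cells its log2 difference from CL4-TCR, 1.33, lay within the range of the 3 surface chains, 0.65 to 1.45. In Villin-HA + CL4-TCR cells it was 0.53 against a range of 1.40 to 2.06, and 1.13 below the chains' median of 1.66. Cd74 rests on a single probe set, so its own error is unknown.

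Ciita, the gene of the transactivator, had signals of 19.4, 2.9 and 21.5 by its brightest probe set, 4.4, 10 and 13.2 by the next and 2.6, 1.3 and 2.1 by the last, in the stated order of arrays. All lay below the floor, and the probe sets did not order the arrays alike. Ciita was thus not detectable above the floor on any array, and no difference is given for it.

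Over the members, 8 of 14 probe sets were measured in VILLIN-HA/CL4-TCR against CL4-TCR. Of these, 5 were called higher and none lower, beside 6.47% higher and 6.89% lower of 20238 measured probe sets with 1 symbol. In Villin-HA + CL4-TCR against CL4-TCR, 10 were measured, 6 higher and none lower, beside 11.4% and 10.4% of 21715. Counted by gene, 3 of 5 measured members were higher in the first comparison (H2-Aa, H2-Eb1 and Cd74) and none lower, where 7.43% and 6.63% of 11260 genes were. In the second, 3 of 5 were higher (H2-Aa, H2-Ab1 and H2-Eb1) and none lower, where 11.9% and 9.53% of 12196 were. The median log2 difference of the measured member genes was 1.26 and 1.40, against -0.04 and 0.06 over all measured genes. The comparisons share the CL4-TCR array, and probe sets of 1 gene share its transcript, so these counts are not separate observations. The members were also chosen with earlier results of these data known, so their place among all genes is only described. Of the 6 probe sets higher in the second comparison, 1451721_a_at of H2-Ab1 was above the floor on Villin-HA + CL4-TCR alone.

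**Figure D2:**
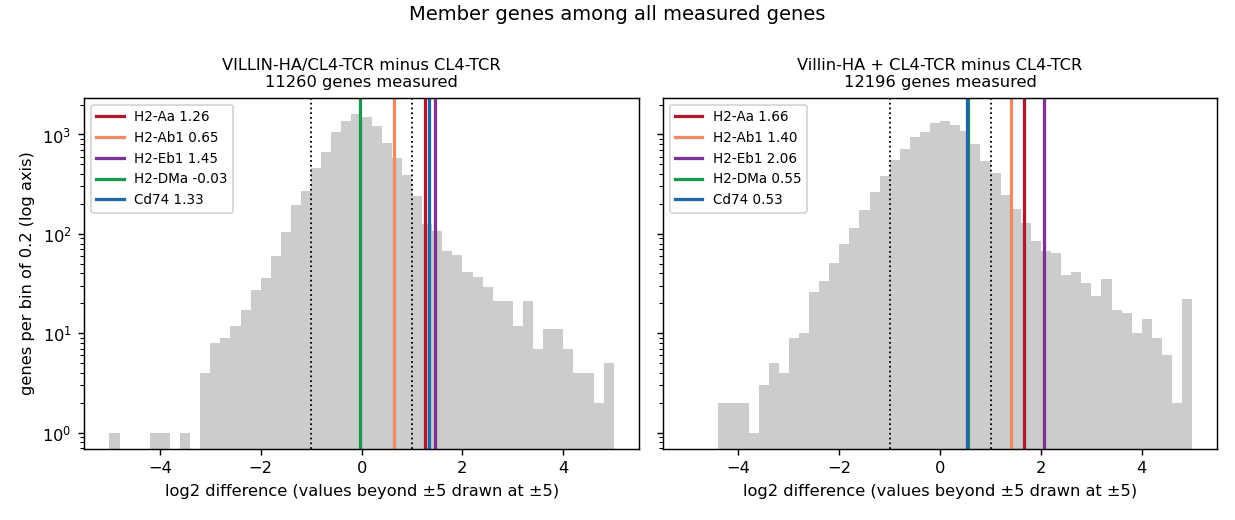
Histograms of the log2 difference from CL4-TCR over all measured genes (11260 and 12196), with genes per bin on a log axis, dotted lines at the 2-fold limits and a coloured line for each measured member. H2-Aa and H2-Eb1 lie beyond the upper limit in both panels, Cd74 in the left one and H2-Ab1 in the right one; in the right panel the line of H2-DMa (0.55) is covered by that of Cd74 (0.53).

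Between the HA arrays the members differed by less. Of 10 measured probe sets, 1 was lower in VILLIN-HA/CL4-TCR than in Villin-HA + CL4-TCR cells and none higher, beside 9.30% lower and 6.49% higher of 21430. The lower one was the H2-Ab1 probe set 1451721_a_at, at least 2.02-fold. No member gene was called by its brightest probe set, beside 6.13% higher and 8.95% lower of 12081 measured genes: H2-Aa, H2-Ab1, H2-Eb1 and H2-DMa had log2 differences of -0.40, -0.76, -0.61 and -0.58, and Cd74 had 0.80. The split depended on the scaling. With the arrays set to the same median, Cd74 was called higher at a log2 difference of 1.06 and no member probe set was lower, and the median of all measured probe sets moved from -0.06 to 0.18.

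Further class II genes were read from lists of the pathway, with each gene taken by its brightest probe set. Of 5 other class II chains found, 4 were measured in VILLIN-HA/CL4-TCR cells, 1 higher and none lower. Of all measured genes, 7.43% were higher and 6.63% lower there. In Villin-HA + CL4-TCR cells 5 were measured, 2 higher and 1 lower, beside 11.9% and 9.53% of all measured genes. H2-Ea, the I-E alpha chain and a pseudogene in the C57BL/6 reference strain, was higher on both HA arrays, with signals of 117.9, 473.2 and 534.2. That is 4.01-fold and 4.53-fold, in the same direction as H2-Eb1, whose product pairs with it. A second H2-Ea probe set had 42.2, 88.1 and 305.8, and the last lay below the floor. H2-DMb2, a beta chain of H2-DM, was 2.37-fold higher in Villin-HA + CL4-TCR cells by 1 probe set, while its others had log2 differences of 0.37 and at least 0.69. H2-Ob, the beta chain of H2-DO, which restrains H2-DM, had 442.1, 354.4 and 150.2 and was 2.94-fold lower in Villin-HA + CL4-TCR cells. Its partner H2-Oa had 314.5, 397.7 and 418.0 and was not called.

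Of 8 genes of antigen processing, 1 of 7 measured was higher in VILLIN-HA/CL4-TCR cells, beside 7.43% of all measured genes. It was Ifi30, a thiol reductase that unfolds antigen in the endosome. Its signals were 85.9, 210.0 and 276.8, so it was 2.44-fold and 3.22-fold higher on the HA arrays. In Villin-HA + CL4-TCR cells 8 were measured, with Ifi30 higher and Sppl2a, the protease that clears the last fragment of the invariant chain, 2.98-fold lower by its brightest probe set. Of all measured genes, 11.9% were higher and 9.53% lower there. The other Sppl2a probe sets did not follow, with log2 differences of 0.10 and 1.13. Ctss, the cathepsin that trims the invariant chain, had even signals of 3000.9, 3299.3 and 3445.6. The ubiquitin ligase genes Marchf1 and Marchf8, which remove class II from the surface, stayed at signals up to 60.7 and were not called. Marchf8 had signals of 2.0, 60.7 and 34.2, a log2 difference of at least 0.94 in VILLIN-HA/CL4-TCR cells. It passed 2-fold there with the arrays set to the same median (at least 1.05) and with quantile normalization (at least 1.02). The same held with the floor at the 35th percentile (at least 1.89) and an added pseudocount (1.46). With the floor at the 35th percentile it also passed 2-fold in Villin-HA + CL4-TCR cells, at 1.06 or more.

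Transcripts of the 7 listed genes whose products bind class II promoters lay above the floor on every array. Rfx5, a subunit of the RFX complex, had signals of 349.2, 862.7 and 597.2, which was 2.47-fold higher in VILLIN-HA/CL4-TCR cells. Rfxank, another subunit, was lower there at a log2 difference of -1.11 by 1 probe set, while another had 0.35, and it fell short of a call, at -0.98, with quantile normalization. Creb1 was lower in Villin-HA + CL4-TCR cells, at -1.13 by its brightest probe set, with others from -0.58 to 0.59. The remaining 4 of the 7 genes, Rfxap, Nfya, Nfyb and Nfyc, were not called in either comparison. By brightest probe sets, 1 of the 7 was thus higher and 1 lower in VILLIN-HA/CL4-TCR cells, beside 7.43% and 6.63% of all measured genes. In Villin-HA + CL4-TCR cells none was higher and 1 lower, beside 11.9% and 9.53%.

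Ciita is induced by interferon gamma and repressed by Blimp-1. Of 6 measured genes of this control in VILLIN-HA/CL4-TCR cells, Jak2, a kinase of the interferon gamma receptor, was higher (log2 difference 1.08) and Irf1, a factor that binds the interferon-inducible Ciita promoter, lower (-1.02), with a median of -0.78. Over all measured genes 7.43% were higher and 6.63% lower. Irf1 fell short of a call, at -0.96, with the arrays set to the same median. Some probe sets that are not the brightest of their genes were also called. Another Jak2 probe set was higher on both HA arrays, at 1.09 and 1.17. Against this, 1 Jak1 probe set was lower on both, at -1.13 and -1.87, while the other Jak1 probe sets were not called. For Ifngr2, 1 probe set was lower on Villin-HA + CL4-TCR, at -1.31 or below. In Villin-HA + CL4-TCR cells only Prdm1, which encodes Blimp-1, was called of 7: its signal was 214.5, against 28.7 on CL4-TCR and 23.1 on VILLIN-HA/CL4-TCR, so at least 6.77-fold higher. There, 11.9% of all measured genes were higher and 9.53% lower. Cd44, a co-receptor when Cd74 acts as the receptor of the cytokine MIF, was 4.42-fold and 3.81-fold higher on the HA arrays, and Mif itself had signals of 2149, 4066.6 and 3367.2, short of a call. Cxcr4, a further partner of that receptor, had 866.5, 115.2 and 454.0, a log2 difference of -2.91 in VILLIN-HA/CL4-TCR cells. Of the T cell receptors for class II, Cd4 lay below the floor, and Lag3 had 5.8, 269.0 and 310.6, at least 8.49-fold and 9.80-fold higher.

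Costimulatory genes of antigen-presenting cells were measured for 3 of 4 members. Cd86, a ligand of CD28, had signals of 32.9, 64.4 and 140.4 and was 4.27-fold higher in Villin-HA + CL4-TCR cells. Cd83, which in antigen-presenting cells holds class II at the surface and is also made by activated T cells, had 26.9, 810.0 and 689.4. Cd80 lay below the floor on all arrays by its brightest probe set, with another just above it, at 33.3, on Villin-HA + CL4-TCR, and Cd40 had 24.5, 37.7 and 56.7 and was not called. Over the 9 pathway lists together, 7 of 45 measured genes were higher and 5 lower in VILLIN-HA/CL4-TCR cells, and 8 of 49 were higher and 3 lower in Villin-HA + CL4-TCR cells. Over all measured genes the shares were 7.43% higher and 6.63% lower in the former and 11.9% and 9.53% in the latter. The medians of the lists were 0.01 and 0.23.

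MHC class I genes, which all nucleated cells express, were read for comparison. By their brightest probe sets none of 13 measured was higher on either HA array, 2 were lower on VILLIN-HA/CL4-TCR, namely Tap2 (-1.04) of the peptide transporter and the immunoproteasome gene Psmb8 (-1.25, another probe set -0.40), and none was lower on Villin-HA + CL4-TCR. Over all measured genes, 7.43% were higher and 6.63% lower on VILLIN-HA/CL4-TCR. On Villin-HA + CL4-TCR the shares were 11.9% and 9.53%. Tap2 fell short of a call, at -0.98, with the arrays set to the same median. The class I heavy chains were not called by their brightest probe sets, at -0.62 for H2-K1 and -0.61 for H2-D1 on VILLIN-HA/CL4-TCR, but most of their other probe sets were lower there. For H2-K1, 3 of 4 were lower, 2.28-fold to 3.24-fold, and for H2-D1, 6 of 8 measured, 2.32-fold to 3.42-fold; none of these was called on Villin-HA + CL4-TCR. Canx, the chaperone calnexin, had 1 of 3 probe sets higher on each HA array, 2.11-fold on VILLIN-HA/CL4-TCR and another 2.15-fold on Villin-HA + CL4-TCR. The medians over the brightest probe sets were -0.47 and 0.23. Nlrc5, the transactivator of class I and a relative of Ciita, had signals of 2062.6, 1442.4 and 1232.6, so it was above the floor on each array where Ciita was not. B2m, the shared light chain, had 10521.5, 10607.7 and 11949. With 1 array a group, the difference between the class I and class II lists has no test.

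**Figure D3:**
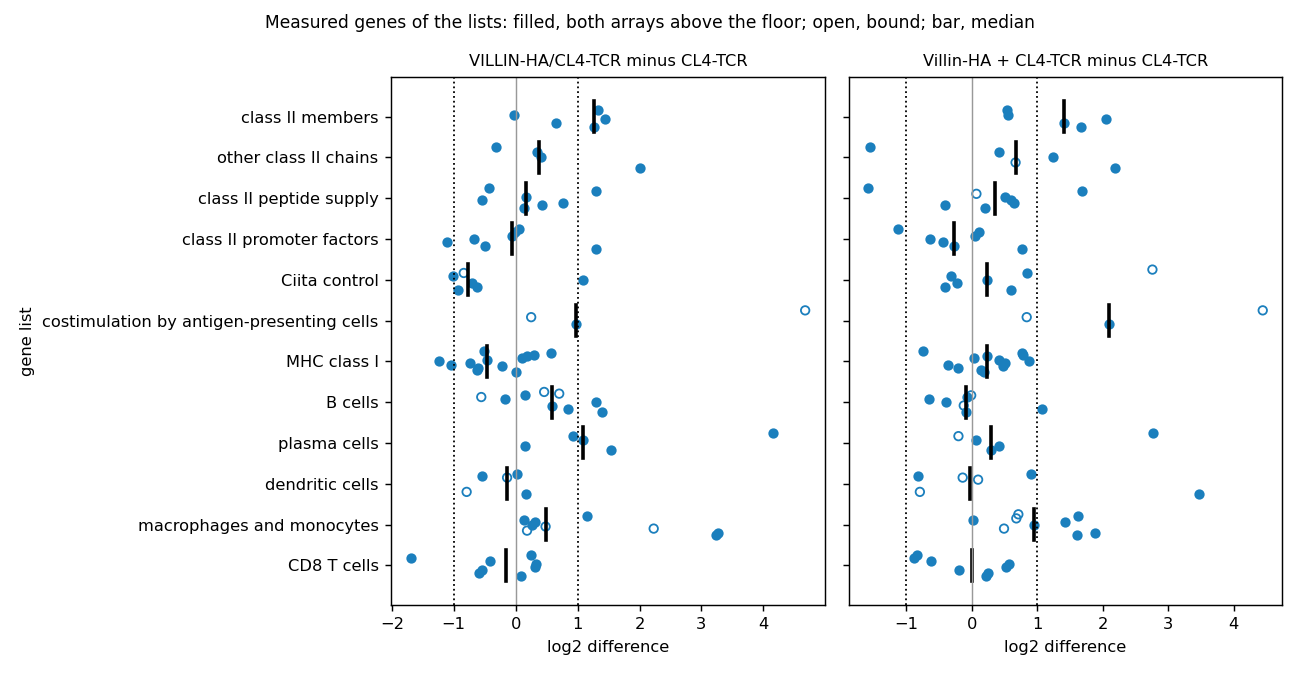
Log2 differences from CL4-TCR for each measured gene of 12 lists, with filled points where both arrays lay above the floor, open points for bounds, a bar at the list's median and dotted lines at the 2-fold limits. The class II members have medians of 1.26 and 1.40, and the MHC class I list has -0.47 and 0.23.

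Markers of cells that carry class II were read beside these results. Of all 18194 named genes, 10271 lay above the floor on CL4-TCR, 10342 on VILLIN-HA/CL4-TCR and 11422 on Villin-HA + CL4-TCR. Of 11 macrophage and monocyte markers found, 6 lay above the floor in CL4-TCR cells and 9 on each HA array, and their summed signal was 327.1 on CL4-TCR, 1665.1 on VILLIN-HA/CL4-TCR and 928.4 on Villin-HA + CL4-TCR. Most of the VILLIN-HA/CL4-TCR sum came from Lyz2 and Csf1r. The median log2 difference of the measured markers from CL4-TCR was 0.48 for VILLIN-HA/CL4-TCR and 0.96 for Villin-HA + CL4-TCR. Lyz2, the lysozyme gene, had 84.5, 817.3 and 312.2, and Csf1r, the macrophage growth factor receptor, had 40.9, 384.1 and 125.0 by its brightest probe set. By its brightest probe set no class II member was called between the HA arrays, so the order of these arrays rests on differences below 2-fold for the members. Cd74 shared the order of arrays of Lyz2 and of that Csf1r probe set, whereas H2-Aa, H2-Ab1 and H2-Eb1 did not. C1qb, a complement gene, had 18.1, 148.6 and 44.6 and the same order. Tyrobp, Cd68 and Adgre1 instead had their highest signals, 99.2, 106.3 and 64.6, in Villin-HA + CL4-TCR cells. They shared the order of arrays of H2-Aa, H2-Ab1 and H2-Eb1. Cd14 and Fcer1g were also highest there, at 50.8 and 51.9. C1qa, C1qc and Fcgr1 were highest on VILLIN-HA/CL4-TCR, at 36.0, 44.3 and 44.9. The other probe sets of Csf1r had 38.7, 127.9 and 120.2, and 46.3, 58.2 and 88.5.

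Of 11 dendritic cell markers, 5, 3 and 4 lay above the floor, beside 10271, 10342 and 11422 of all 18194 named genes. The summed signals were 738.4, 697.9 and 1520.2. Itgax, the integrin CD11c, had 38.9, 43.5 and 430.7, and Cst3 had 489.5, 495.9 and 914.7. Flt3, Xcr1, Siglech and Batf3 lay below the floor on all arrays, and Zbtb46 lay above it in CL4-TCR cells alone, at 54.9.

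Of 13 B cell markers, 7, 8 and 5 lay above the floor, beside 10271, 10342 and 11422 of all 18194 named genes. Ighm, the heavy chain of IgM, had 3004.9, 2665.6 and 1913.1 by its brightest probe set, and the other 12 markers summed to 461.4, 802.9 and 581.9. Ms4a1, which encodes CD20, had 55.8, 147.2 and 52.5, Cd22 had 72.7, 178.9 and 55.6, and Cd79b had 110.5, 199.1 and 233.1, the last short of a call (0.87) with the arrays set to the same median. The defining marker Cd79a, at 31.4, 13.1 and 8.7, lay below the floor on each array, as did Blnk and Ebf1. Their part in the class II signals, like that of macrophage and dendritic cell transcripts, was not tested.

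**Figure D4:**
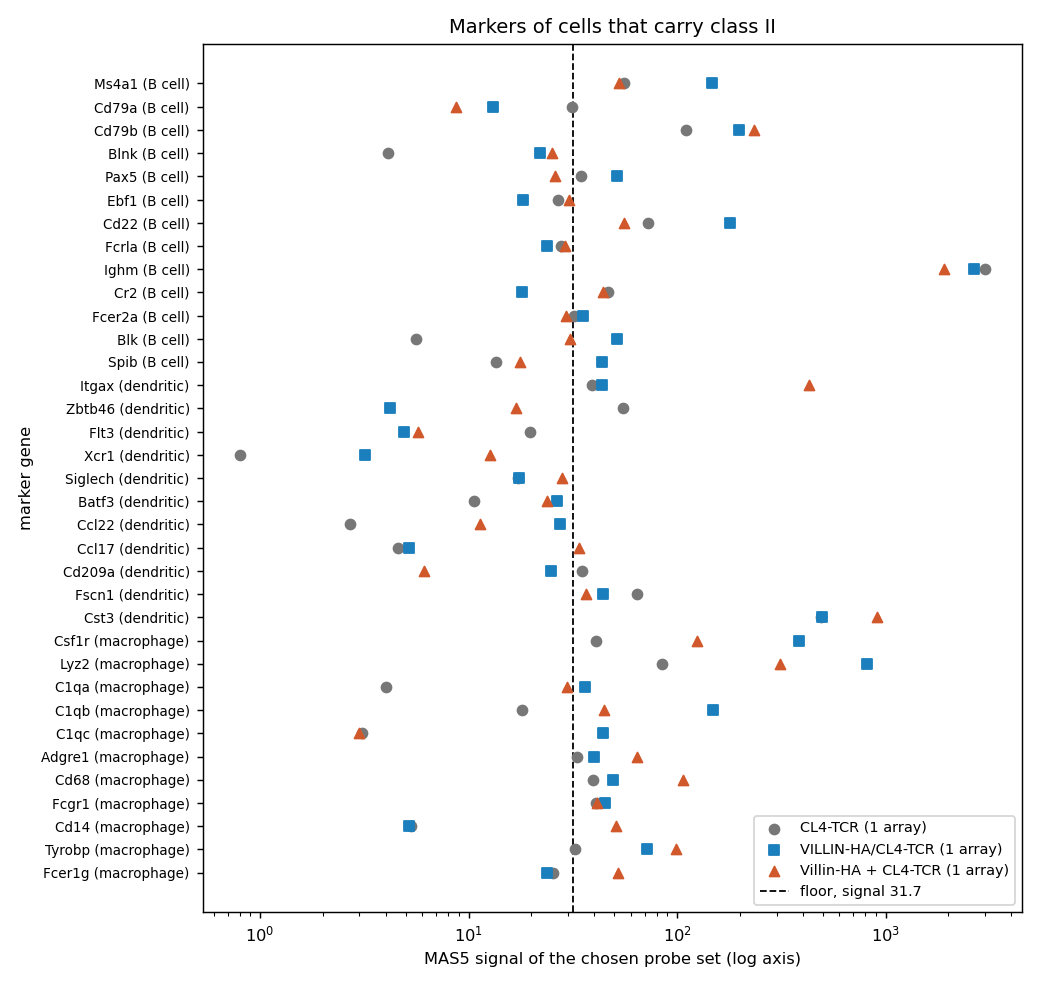
MAS5 signal on a log axis for the chosen probe set of each B cell, dendritic cell and macrophage marker, with 1 symbol for each array and a dashed line at the floor of 31.7. Lyz2 and Csf1r are highest on VILLIN-HA/CL4-TCR, Itgax is highest on Villin-HA + CL4-TCR, and Cd79a is below the line on all arrays.

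Of the other lists, 7 plasma cell markers summed to 1956.3, 3408.4 and 2795.9, most of it from Xbp1 at 1520.8, 1695.4 and 2036.4. Irf4, which activated T cells also express, had 49.6, 886.9 and 338.8, Igha 260.8, 556.3 and 274.0, and Jchain 61.0, 177.7 and 74.9. The 5 neutrophil markers found summed to 81.9, 87.3 and 1499.6, led by S100a8, Ngp, S100a9 and Camp at 738.7, 373.7, 258.8 and 109.5 in Villin-HA + CL4-TCR cells. The 9 markers of stroma and endothelium summed to 153.7, 141.5 and 815.0, led by the collagen genes Col1a2, Col3a1 and Col1a1 at 369.9, 181.1 and 86.1 in Villin-HA + CL4-TCR cells, and the 6 of epithelium to 170.5, 129.4 and 211.2, with Vil1, the villin gene, at signals of at most 4.8. The 3 markers of innate lymphoid cells that were found summed to 1078.3, 1890.7 and 2847.1, mostly from Id2, which T cells also express; Kit had 14.9, 196.5 and 87.2.

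For each member above the floor on all arrays, the 5 genes of most similar pattern were sought among 9013 genes, by the root mean square difference (RMS) of the log2 differences of both HA arrays from CL4-TCR, over 3 arrays. The nearest to H2-Aa was Ifi30 (RMS 0.03), followed by Anp32e, 4930577N17Rik, Nlrx1 and Kif18b. Those nearest to H2-Eb1 were Bnip3, Hmgn5, Nudt1, Lgalsl and Nfkb2. Those nearest to H2-Ab1 were Nptn, Apaf1, Anapc15, Vps54 and Fgfr3, those nearest to Cd74 were Elp5, Blm, Zfp991, 0610010F05Rik and Syk, and those nearest to H2-DMa were Akip1, Tm2d3, Toe1, Tlr2 and Gna15. Such likeness is common with 3 arrays: 143 genes lay within an RMS of 0.5 of H2-Eb1, 320 of H2-Aa, 610 of Cd74, 743 of H2-Ab1 and 2954 of H2-DMa.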

How the data were processed

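The deposited values are intensity values on a linear scale, made by the authors with MAS5 per the submitters' processing notes; the scaling was read from the values, and the version, background settings and build are, in the sources used here, not given. Changes common to most transcripts are removed by such scaling. The number of arrays limits the precision.

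Of 45101 probe sets, 34958 had 1 gene symbol, 932 several and 9211 none; 34754 were matched by Entrez identifier to the GRCm38.p6 RefSeq table. A gene was represented by its probe set with the highest mean signal, all probe sets being given for the members. Signals were raised to a floor at the median of all values and compared as log2 differences (Python 3.11.15, numpy 2.4.6, pandas 2.3.3). There are no replicates, so the arrays were compared without a statistical test. The calling rule was also run on simulated data. The planted changes there were all larger than 2-fold, and the noise was below the pooled disagreement of probe sets. That run therefore does not show how well 2-fold differences between these arrays are called. Names were given to the members, to list genes past 2-fold in a comparison with CL4-TCR by their brightest probe set (up to 4 a list by rule, the largest first), to defining markers and to the 5 genes nearest to each member; further list genes were named after their values were seen. Of 140 names in 18 lists, 125 were found. The members and lists were chosen with earlier results of these data known. Alternatives were 2 other scalings, 2 other floors, an added pseudocount, 2 other probe set rules and thresholds of 1.5-fold and 3-fold.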

Additional observations from a re-analysis of the deposited data

How the results depend on the processing

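The calls of H2-Aa and H2-Eb1 on both HA arrays, of Cd74 on VILLIN-HA/CL4-TCR and of H2-Ab1 on Villin-HA + CL4-TCR, each against CL4-TCR, kept their direction and stayed past 2-fold under every alternative scaling, floor and probe set rule that could give them. H2-Ab1 on Villin-HA + CL4-TCR reached a log2 difference of 1.00, just past 2-fold, with the mean of its probe sets. H2-Aa, H2-Ab1 and Cd74 have no value without probe sets of possible multiple matches; the median of the 2 genes left, H2-Eb1 and H2-DMa, was then 0.71 for VILLIN-HA/CL4-TCR against CL4-TCR. At 3-fold, 1 member probe set was called in that comparison instead of 5. Between the HA arrays, the 1 call became 0 with quantile normalization, with the floor at the 65th percentile and at 3-fold, 2 with the floor at the 35th percentile and 6 at 1.5-fold (5 lower, 1 higher), and with equal medians it was 1 call in the other direction. The cause was not tested. In the innate lymphoid list, 1 gene was lower instead of 2 higher on Villin-HA + CL4-TCR without probe sets of possible multiple matches. With the floor at the 35th percentile Ciita was measured, with log2 differences from CL4-TCR of 0.15 for Villin-HA + CL4-TCR and -0.24 for VILLIN-HA/CL4-TCR, the latter a bound since that signal was raised to the floor. With the mean of all probe sets H2-K1 and H2-D1 were lower on VILLIN-HA/CL4-TCR, at -1.19 and -1.13, and the calls of H2-DMb2, Sppl2a and Creb1 on Villin-HA + CL4-TCR and of Rfxank and Psmb8 on VILLIN-HA/CL4-TCR were lost. Signals near the floor, as for Ciita and 2 of the H2-Ab1 probe sets, limit what can be compared. No paired analysis was possible because each group holds 1 array, and for the same reason no array could be left out.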
